A study of Mus musculus with 10 samples.

Results

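The 10 genes described here encode the ATF4 and CHOP arm of the integrated stress response and were chosen by name, as the rows for Atf4, Atf5, Ddit3, Trib3, Chac1, Ppp1r15a, Cebpg, Nupr1, Eif2ak3 and Eif2ak4 in a table of 23420 rows. All 10 rows were present, and all 10 passed the filter on low values. The libraries came from CD4+ T cells that make IL-22, from C57BL/6 mice aged 10 weeks, with 5 wild-type (WT, Riok2+/+ Vav1cre/+ Il22tdtomato/+) and 5 with 1 floxed copy of Riok2 (Riok2hKO, Riok2f/+ Vav1cre/+ Il22tdtomato/+). Both groups therefore carried the Vav1-driven Cre, which is active throughout the blood lineages and not in T cells alone, and the tdTomato reporter of Il22 by which 5000 cells per library were sorted. Naive splenic CD4+ T cells had been activated through CD3 and CD28 with IL-6 (30 ng/mL), IL-23 and IL-1 beta (20 ng/mL each), FICZ (400 nM, a ligand of the aryl hydrocarbon receptor) and antibodies blocking IL-4 and interferon gamma. The question was how these cells differ when 1 copy of Riok2, which encodes a kinase of late small ribosomal subunit maturation, is lost.

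The integrated stress response starts with kinases that phosphorylate the translation initiation factor eIF2, each sensing a different stress. Phosphorylated eIF2 slows translation in general while favouring that of the Atf4 mRNA, so that ATF4 protein is set largely by translation and its activity is read more directly from its target genes than from its own mRNA. ATF4 induces a second tier of factors, CHOP (the product of Ddit3) among them, together with genes for amino acid uptake and synthesis, and feedback proteins that end the response. In T cells this programme is known for its response to amino acid supply during activation.

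TPM gives each gene's share of a library's transcripts per length, so levels of different genes can be compared, while the depth behind them is unknown. Fold changes are on the log2(TPM + 1) scale, Riok2hKO against WT, and a gene is said to have risen or fallen where limma's p, adjusted over 10332 tested genes, was under 0.05. Between 13948 and 14695 genes had a TPM above 0 in a library, and Riok2 mRNA in Riok2hKO was at 48.3% of the WT mean (28.3 ± 1.57 TPM in WT and 13.6 ± 1.71 in Riok2hKO, SD, n = 5). Libraries correlated across genes at r = 0.996 to 0.998 within a group and 0.993 to 0.997 between groups. The labelled cell type was matched by Cd3d, Cd3e, Cd3g, Cd4, Lck and Cd28, with WT means of 89.5 (Cd28) to 551 TPM (Lck), while Ahr was low (0.414 ± 0.254 TPM in WT, SD, n = 5). Of those 6 T cell genes, Cd3d, Cd3g and Lck fell in Riok2hKO (limma log2 fold changes -0.20, -0.21 and -0.13), Cd28 rose (0.31), and Cd3e (-0.030) and Cd4 (0.045) did not pass; their part in the results below was not tested. Summed over 5 B cell markers the level was 1.67 to 3.09 TPM in WT and 1.16 to 2.35 in Riok2hKO, over 6 myeloid markers 0.38 to 0.65 and 0.15 to 0.59 (S100a8 at 0 in all 10 libraries), and over 5 erythroid markers 0.08 to 1.13 and 0.39 to 0.89 (Hbb-b1 and Hbb-b2 at 0 in all). The 5 CD8 and NK cell markers summed to 18.1 to 20.7 TPM in WT and 11.95 to 15.2 in Riok2hKO, nearly all of it Cd8b1, whereas Cd8a, the other CD8 chain, was at 0.260 ± 0.131 and 0.184 ± 0.107 TPM; the part of this difference in the results below was not tested.

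Of the 10 genes, 4 fell in Riok2hKO (Atf4, Ddit3, Trib3 and Chac1), 0 rose and 6 did not pass limma's test. Over all tested genes, 17.1% changed by the same adjusted test, 7.55% downwards and 9.58% upwards. At an unadjusted p under 0.05, 6 of the 10 genes were lower and 0 higher. The share of all tested genes at that looser threshold was not counted, here or beside the lists below. Counts at that threshold therefore have no background to be set against. In 3 genes, Ddit3, Trib3 and Chac1, every Riok2hKO library was below every WT library, as in 5.87% of all tested genes. None was higher in every Riok2hKO library, against 8.72% of all tested genes, and 14.6% did not overlap in either direction. The median log2 fold change of the 10 genes was -0.16, against -0.006 over all tested genes. The falls were graded: Chac1 was at 53.8% of its WT mean, Trib3 at 62.6%, Ddit3 at 66.2% and Atf4 at 91.2%. In bulk samples, fewer cells expressing a gene and less RNA per cell cannot be told apart.

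**Figure D1:**
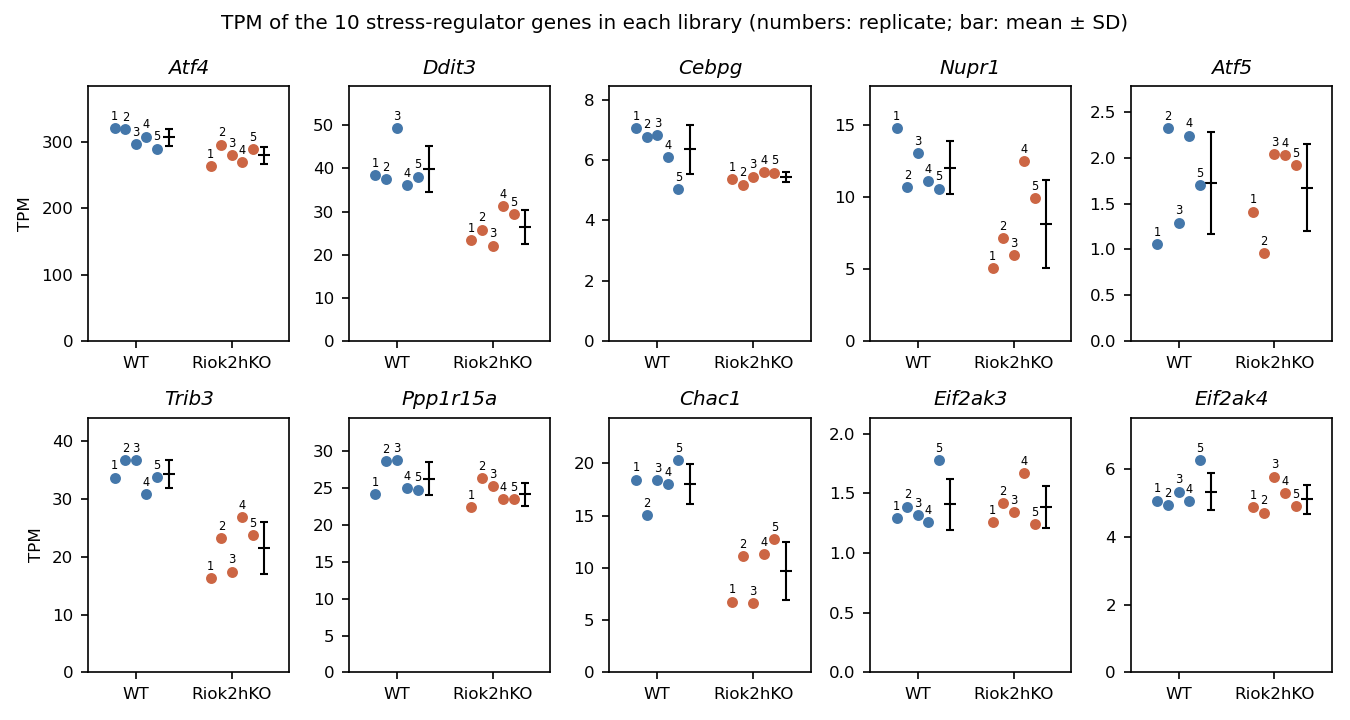
TPM of each of the 10 genes (vertical axes, each starting at 0) in the 5 WT and 5 Riok2hKO libraries; points are libraries labelled by replicate number and bars are mean ± SD. Ddit3, Trib3 and Chac1 show groups that do not overlap, and the other 7 genes overlap.

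The genes were measured at very different levels. In WT, Atf4 had 307 ± 13.4 TPM (SD, n = 5), well above Ddit3 (39.9 ± 5.31), Trib3 (34.4 ± 2.45), Ppp1r15a (26.2 ± 2.26), Chac1 (18.05 ± 1.89) and Nupr1 (12.0 ± 1.82). Cebpg (6.35 ± 0.818), Eif2ak4 (5.33 ± 0.542), Atf5 (1.72 ± 0.559) and Eif2ak3 (1.41 ± 0.213) followed. The WT ranges of neighbours in this order overlapped for Ddit3 and Trib3, for Cebpg and Eif2ak4 and for Atf5 and Eif2ak3, and were apart for the others.

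At the head of the pathway, neither of the 2 eIF2 kinases among the 10 genes changed detectably. Eif2ak3 encodes PERK, the kinase that senses unfolded protein in the endoplasmic reticulum. Its TPM was 1.29, 1.39, 1.32, 1.26 and 1.78 in WT replicates 1 to 5 and 1.26, 1.42, 1.34, 1.67 and 1.24 in Riok2hKO replicates 1 to 5, so that the groups covered nearly the same range (log2 fold change -0.012, 95% interval -0.21 to 0.18, limma adjusted p = 0.941). Without the added 1 TPM, Eif2ak3 in Riok2hKO was at 98.4% of its WT mean (95% interval 80.3% to 121%). Eif2ak4 encodes GCN2, the kinase that senses uncharged tRNA. It measured 5.06, 4.93, 5.33, 5.05 and 6.26 TPM in WT and 4.87, 4.71, 5.77, 5.29 and 4.90 in Riok2hKO, again with overlapping ranges (log2 fold change -0.049, 95% interval -0.21 to 0.12, adjusted p = 0.706). In both kinases WT replicate 5 held the highest value. Leaving it out turned both log2 differences upwards, to 0.041 for Eif2ak3 and 0.0013 for Eif2ak4, neither past limma's test (adjusted p = 0.795 and 0.993).

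Atf4, the central transcription factor, fell slightly. Its TPM was 320, 319, 297, 308 and 290 in WT and 263, 296, 280, 269.8 and 289 in Riok2hKO. The ranges overlapped, with WT replicate 5 below Riok2hKO replicate 2. The mean went from 307 ± 13.4 to 279.7 ± 13.4 TPM (limma log2 fold change -0.13 with an SE of 0.0388, adjusted p = 0.0343). The call was near the threshold: it was lost without WT replicate 1, 2 or 4 or Riok2hKO replicate 1, 3 or 4 (adjusted p = 0.0562 to 0.0848), while the log2 fold change ran from -0.15 to -0.11 over the 10 fits with 1 library left out. It was also lost in 3 of the 11 other alternatives (adjusted p = 0.0654 to 0.0790), among them no filter on low values (0.0688) and no variance trend (0.0790). The gene lies on mm10 chromosome 15 (80255184 to 80257545).

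Ddit3 encodes CHOP, a C/EBP-family factor that ATF4 induces and that is known for promoting cell death under lasting stress. It measured 38.4, 37.5, 49.3, 36.2 and 38.1 TPM in WT and 23.4, 25.8, 22.1, 31.3 and 29.4 in Riok2hKO. All Riok2hKO libraries lay below all WT libraries, and WT replicate 3 stood above the rest of its group. The mean went from 39.9 ± 5.31 to 26.4 ± 3.91 TPM (limma log2 fold change -0.58 with an SE of 0.103, adjusted p = 0.003). The two-sided exact permutation test gave p = 0.00794, the smallest that 5 against 5 libraries allow. Without WT replicate 3 the log2 fold change was -0.50 (adjusted p = 0.00488). In the GENCODE annotation exons of Ddit3 (mm10 chromosome 10, 127290793 to 127296291) overlap those of Mars on the opposite strand, and these libraries do not keep the strand, so reads of the overlap cannot be assigned with certainty. Mars, which encodes methionyl-tRNA synthetase, went from 158 ± 4.60 to 142 ± 4.12 TPM (log2 fold change -0.16, adjusted p = 0.00521), against -0.58 for Ddit3.

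Trib3 encodes a pseudokinase that is induced by ATF4 and CHOP and restrains ATF4 in turn. It measured 33.7, 36.7, 36.7, 30.9 and 33.8 TPM in WT and 16.3, 23.2, 17.4, 26.9 and 23.7 in Riok2hKO. The groups did not overlap, and the Riok2hKO libraries were spread more widely (coefficient of variation 20.9%, against 7.13% in WT). The limma log2 fold change was -0.67 with an SE of 0.118 (adjusted p = 0.0029), and 28 of the 10332 tested genes, Trib3 included, had one at least as low. Trib3 lies on chromosome 2 (152337425 to 152344060).

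Chac1, which encodes a glutathione-degrading enzyme and is a target of ATF4 and ATF3, fell most of the 10 genes. It measured 18.44, 15.06, 18.38, 18.03 and 20.32 TPM in WT and 6.78, 11.1, 6.64, 11.3 and 12.7 in Riok2hKO. The highest Riok2hKO library was below the lowest WT library, and Riok2hKO replicates 1 and 3 were lower than the other 3. The mean went from 18.05 ± 1.89 to 9.71 ± 2.81 TPM (limma log2 fold change -0.87 with an SE of 0.160, adjusted p = 0.00371). Only 12 tested genes, Chac1 included, had a log2 fold change this low. Chac1 lies on chromosome 2 (119351242 to 119354326). The calls of Ddit3, Trib3 and Chac1 held in all 11 alternative analyses and in all 10 fits with 1 library left out.

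**Figure D2:**
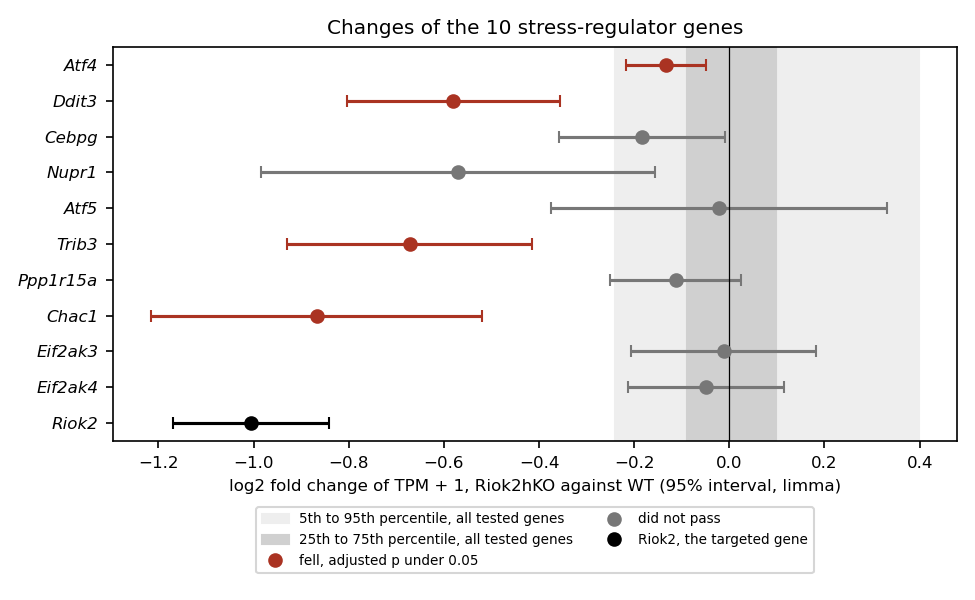
Log2 fold change of TPM + 1 (horizontal axis, Riok2hKO against WT) with the 95% interval from limma for the 10 genes and for the targeted gene Riok2; grey bands give the spread of all tested genes. Chac1, Trib3, Ddit3 and Nupr1 lie below the 5th percentile of all tested genes (-0.24), Atf4 lies inside it, and Nupr1 did not pass the test.

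Nupr1 encodes a small stress-induced chromatin protein. Its TPM was 14.8, 10.7, 13.1, 11.1 and 10.6 in WT and 5.06, 7.13, 5.95, 12.5 and 9.90 in Riok2hKO. In 4 of 5 Riok2hKO libraries it was below every WT library, and Riok2hKO replicate 4 lay inside the WT range. The log2 fold change was -0.57, close to that of Ddit3, with a wider interval (-0.98 to -0.16), and it did not pass the test (limma adjusted p = 0.0593). Without Riok2hKO replicate 4 the log2 fold change was -0.73 with an adjusted p of 0.0134; over all alternatives tried the adjusted p ran from 0.0134 to 0.133.

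Cebpg and Atf5 complete the transcription factors. Cebpg encodes a C/EBP protein that pairs with ATF4 on DNA. It measured 7.04, 6.77, 6.81, 6.09 and 5.03 TPM in WT and 5.37, 5.18, 5.44, 5.60 and 5.58 in Riok2hKO. WT replicate 5 was the lowest of all 10 libraries, and the other 4 WT libraries were above every Riok2hKO library. The log2 fold change of -0.18 did not pass (limma adjusted p = 0.138), and it was -0.25 without WT replicate 5 (adjusted p = 0.0217; over all alternatives 0.0217 to 0.253). Atf5, a relative of ATF4 whose mRNA is likewise controlled in translation and which is known for the mitochondrial stress response, was at 1.06 to 2.32 TPM in WT and 0.96 to 2.04 in Riok2hKO. These ranges nearly coincide (log2 fold change -0.022, 95% interval -0.38 to 0.33, adjusted p = 0.941). Without the added 1 TPM, Atf5 in Riok2hKO was at 97.1% of its WT mean, with a wide 95% interval of 62.1% to 152%. Within each group the highest library was more than 2-fold above the lowest, and WT replicate 1 was the lowest of its group. Exons of Atf5 overlap those of Nup62 and Il4i1 on the opposite strand; Nup62 was at 147 ± 3.29 TPM in WT, far above Atf5. Exons of Cebpg, Eif2ak3 and Ppp1r15a also overlap genes on the opposite strand (Gm45095, Gm43292 and Tulp2, the last at 0.036 ± 0.0805 TPM in WT), and those of Atf4, Trib3, Chac1, Nupr1 and Eif2ak4 overlap none. On mm10, Nupr1 (126623246 to 126625470), Cebpg (35046422 to 35056566), Atf5 (44812256 to 44816658) and Ppp1r15a (45522917 to 45526268) lie on chromosome 7, Eif2ak3 on chromosome 6 (70844484 to 70905241) and Eif2ak4 on chromosome 2 (118388583 to 118475234).

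Ppp1r15a encodes GADD34, the stress-induced subunit that leads phosphatase 1 to eIF2 and so ends the response. It measured 24.1, 28.6, 28.8, 24.96 and 24.8 TPM in WT and 22.4, 26.3, 25.2, 23.5 and 23.5 in Riok2hKO. The ranges overlapped between 24.1 and 26.3 TPM, with WT replicates 2 and 3 above and Riok2hKO replicates 1, 4 and 5 below that stretch (log2 fold change -0.11, 95% interval -0.25 to 0.025, limma adjusted p = 0.248). Its constitutive counterpart Ppp1r15b, which encodes CReP, had a log2 fold change of 0.084 (18.6 ± 0.681 TPM in WT, 19.8 ± 1.44 in Riok2hKO, adjusted p = 0.332).

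The falls of Ddit3, Trib3 and Chac1 were larger than that of Atf4 itself. This was compared by ratios of 2 genes within each library, which depend little on how libraries are scaled. There were 6 ratios of log2(TPM + 1), with adjustment over the 6. They were chosen with earlier results of these data known, so they are no independent check of those falls. The log2 ratio of Ddit3 to Atf4 went from -2.92 ± 0.208 in WT to -3.37 ± 0.210 in Riok2hKO, a difference of -0.45 (95% interval -0.75 to -0.14; two-sided exact permutation p = 0.00794, adjusted 0.0159). That of Trib3 to Atf4 differed by -0.54 (-0.85 to -0.23) and that of Chac1 to Atf4 by -0.73 (-1.16 to -0.30). Both gave the same exact permutation p of 0.00794, the smallest that these libraries allow. In all 3 ratios every Riok2hKO library lay below every WT library, narrowly for Ddit3 (highest Riok2hKO -3.07, lowest WT -3.06) and for Trib3 (both -3.28 when rounded), and more widely for Chac1 (-4.40 and -4.32).

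The other 3 ratios did not pass. Ppp1r15a to Ppp1r15b differed by -0.20 (95% interval -0.36 to -0.033; exact permutation p = 0.0476, adjusted 0.0714). Atf5 to Atf4 differed by 0.11 (-0.33 to 0.56; exact permutation p = 0.571) and Eif2ak3 to Eif2ak4 by 0.037 (-0.10 to 0.18; exact permutation p = 0.563). These intervals do not show that the pairs kept a constant ratio.

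**Figure D3:**
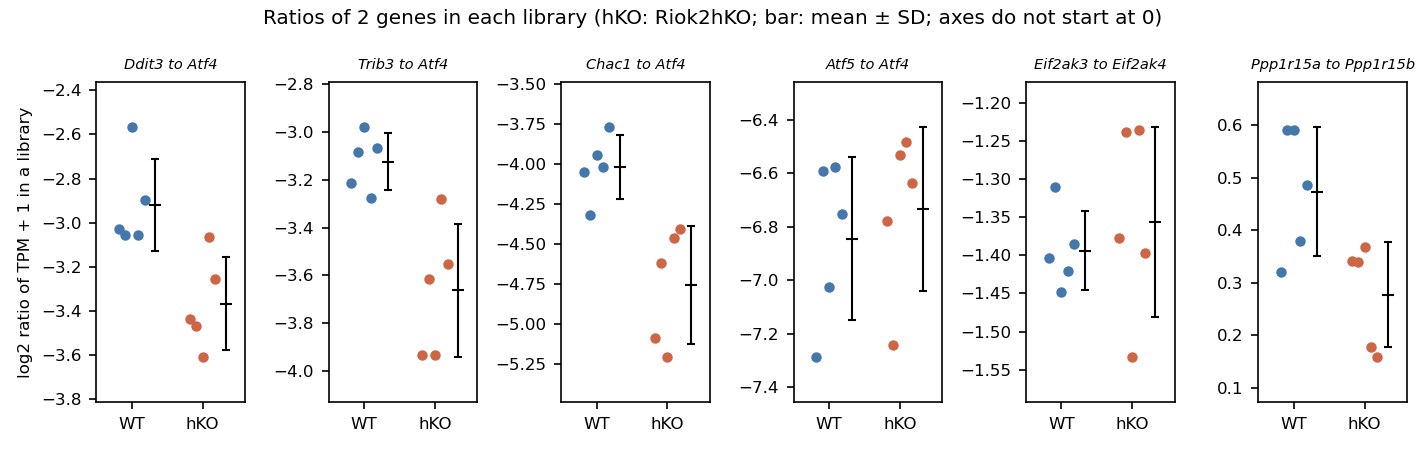
Log2 ratio of TPM + 1 of 2 genes in each library (vertical axes do not start at 0), for WT and Riok2hKO (hKO); points are libraries and bars are mean ± SD. The ratios of Ddit3, Trib3 and Chac1 to Atf4 were lower in Riok2hKO, and the other 3 overlap.

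Ddit3, Trib3, Chac1 and Nupr1 also ranked the Riok2hKO libraries alike. This was seen in the values and is given as a description. In each of the 4 genes Riok2hKO replicates 1 and 3 were the lowest, replicate 2 was in the middle and replicates 4 and 5 were the highest. Among all tested genes, 12.6% had replicates 1 and 3 as the lowest pair (the 10 possible pairs ran from 7.43% to 13.5%), and 4.67% had this full split. Relative to the WT mean, Chac1 was at 37.6% and 36.8% in replicates 1 and 3 and at 61.6% to 70.5% in the other 3, and Nupr1 at 42.0% and 49.4% against 59.2% to 104%. Atf4 did not follow this order: its lowest Riok2hKO libraries were replicates 1 and 4. In WT the 4 genes did not share an order, their highest values falling in replicate 3 for Ddit3 and Trib3, 5 for Chac1 and 1 for Nupr1. The number of genes detected above 0 TPM was highest in Riok2hKO replicates 5 (14623) and 4 (14494), followed by 1 (14405), 2 (14232) and 3 (14183), and the part of this in the order was not tested.

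**Figure D4:**
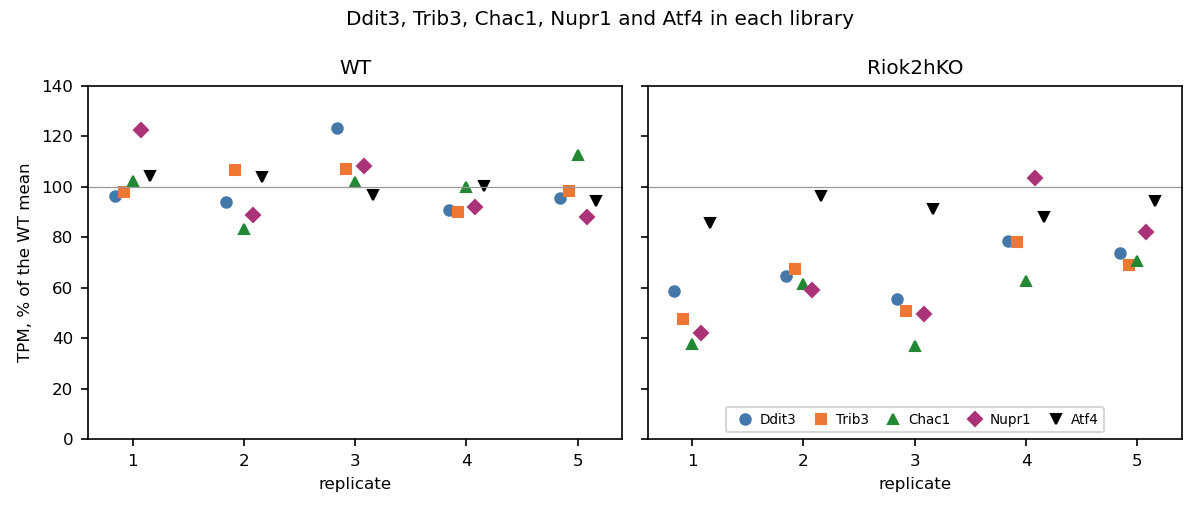
TPM of Ddit3, Trib3, Chac1, Nupr1 and Atf4 as a percentage of the gene's WT mean (vertical axis) in each replicate (horizontal axis), WT on the left and Riok2hKO on the right; small sideways shifts keep points apart. In Riok2hKO the first 4 genes were lowest in replicates 1 and 3, while Atf4 stayed between 85.8% and 96.4%.

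The promoters of these 4 genes are shown because the genes shared this library order and because ATF4 with C/EBP partners is known to bind a composite element in such promoters. The windows run from 250 bases before to 50 after the start site (RefSeq, GRCm38.p6, the assembly of mm10), 5′ to 3′ on the gene's strand, and capitals mark the 8-base core TGATGNAA read on either strand. Ddit3 is at chr10:127290543-127290842 (+), Trib3 at chr2:152344011-152344310 (-), Chac1 at chr2:119350992-119351291 (+) and Nupr1 at chr7:126625421-126625720 (-).
Chac1: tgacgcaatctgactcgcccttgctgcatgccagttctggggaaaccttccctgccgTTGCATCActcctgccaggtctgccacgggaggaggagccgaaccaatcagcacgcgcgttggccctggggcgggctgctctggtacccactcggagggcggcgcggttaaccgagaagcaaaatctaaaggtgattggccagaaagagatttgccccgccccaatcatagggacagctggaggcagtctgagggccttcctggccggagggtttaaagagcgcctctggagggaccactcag
Nupr1: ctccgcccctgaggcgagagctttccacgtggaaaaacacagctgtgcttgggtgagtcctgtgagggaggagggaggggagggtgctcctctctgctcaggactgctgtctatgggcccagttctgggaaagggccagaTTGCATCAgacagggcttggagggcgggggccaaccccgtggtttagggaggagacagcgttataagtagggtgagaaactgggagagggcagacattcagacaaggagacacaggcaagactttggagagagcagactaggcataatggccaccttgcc
Trib3: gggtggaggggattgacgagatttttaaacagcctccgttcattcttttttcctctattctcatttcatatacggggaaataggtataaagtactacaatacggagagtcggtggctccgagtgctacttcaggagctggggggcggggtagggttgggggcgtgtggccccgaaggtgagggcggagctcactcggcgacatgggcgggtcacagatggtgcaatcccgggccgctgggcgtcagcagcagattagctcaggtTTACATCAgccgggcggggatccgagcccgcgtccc
Ddit3: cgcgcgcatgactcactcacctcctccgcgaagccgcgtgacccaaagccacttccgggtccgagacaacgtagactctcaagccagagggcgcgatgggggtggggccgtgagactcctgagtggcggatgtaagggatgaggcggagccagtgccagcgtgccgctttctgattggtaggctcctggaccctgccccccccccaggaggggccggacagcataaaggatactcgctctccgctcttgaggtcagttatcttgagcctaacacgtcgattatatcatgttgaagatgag

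The core was found in 3 of the 10 genes. Chac1 and Nupr1 hold the same 8 bases, TTGCATCA on the gene's strand, at -193 to -186 and at -110 to -103 from the start site, and Trib3 holds TTACATCA at 14 to 21 after it. The Ddit3 window holds no match, which says only that these letters are not in this window. Over all 32851 promoter windows 3.97% hold the core. Among tested genes with a window it was in 2.72% (of 7753), in 6.16% of the 584 that fell and in 2.53% of the 789 that rose, given as a description. Of 15 amino acid transport and synthesis genes with a window 4 hold it, Asns, Pycr1, Slc1a4 and Slc7a11, of which Slc7a11 did not pass the test. The cAMP response element TGACGTCA, a palindrome that reads the same on both strands, was in the window of Ppp1r15a alone of the 10 genes. It lay at -12 to -5. Counted by window it was in 1.79% of all windows, and counted by gene in 3.97% of the 7753 tested genes with a window. The endoplasmic reticulum stress element (CCAAT and CCACG with 9 bases between them), searched on both strands, was in 0 of the 10 and in 0.119% of all windows. No match overlapped another.

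Around the 10 genes, few genes of the machinery that acts on eIF2 changed, where 17.1% of all tested genes did. Whether these short lists differ from that share was not tested. Of 7 other genes of eIF2 kinases and their regulators 0 rose and 0 fell by limma, and 0 had an unadjusted p under 0.05 (median log2 fold change -0.0063). The heme-regulated kinase gene Eif2ak1 measured 39.6 ± 3.17 TPM in WT and 41.3 ± 4.10 in Riok2hKO, and the kinase gene Eif2ak2, whose product PKR senses double-stranded RNA, 6.06 ± 0.434 and 6.25 ± 0.330. Dnajc3, encoding an inhibitor of PKR and PERK, measured 24.1 ± 0.905 and 23.5 ± 1.19 TPM, and 0610009O20Rik (Dele1, a messenger of mitochondrial stress) 26.3 ± 2.14 and 25.5 ± 1.04. Of 16 genes of eIF2, of its exchange factor eIF2B, of reinitiation factors and of the phosphatase, 1 rose and 0 fell (median -0.030; 4 were lower at an unadjusted p under 0.05). The 1 that rose was Eif2b5, the catalytic subunit of eIF2B, from 30.0 ± 3.14 to 40.8 ± 3.23 TPM (limma log2 fold change 0.43, adjusted p = 0.00253). Eif2s1, the subunit that the kinases phosphorylate, measured 248 ± 8.02 and 231 ± 10.6 TPM (adjusted p = 0.0657; 0.0251 without Riok2hKO replicate 5). Other eIF2B subunit genes did not pass, Eif2b4 with 99.2 ± 6.25 and 91.2 ± 2.21 TPM (adjusted p = 0.0754; 0.0456 without WT replicate 3) and Eif2b3 with 86.0 ± 4.39 and 79.6 ± 2.55 (adjusted p = 0.0803). The list had 1 gene that fell without WT replicate 3 or 4 or Riok2hKO replicate 5.

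Among 9 tested relatives of the ATF and C/EBP factors 1 fell and 1 rose (median 0.037). Over all tested genes 7.55% fell and 9.58% rose, and whether this short list differs from that was not tested. Atf3, another stress-induced factor downstream of ATF4, fell from 5.11 ± 0.963 to 3.46 ± 0.550 TPM (limma log2 fold change -0.45, adjusted p = 0.0237). That call was lost, leaving 0 that fell, without WT replicate 3 or 5 or Riok2hKO replicate 4 or 5 (adjusted p = 0.0515 to 0.0580), and with no filter (0.0614) or the detected genes as a covariate (0.0520). Crem, a cAMP-responsive factor, rose from 31.5 ± 1.36 to 40.7 ± 4.07 TPM (adjusted p = 0.00266). Atf6, the sensor of another branch of the unfolded protein response, measured 7.93 ± 0.413 and 9.17 ± 0.924 TPM (adjusted p = 0.0890), and 2 genes of the list rose without Riok2hKO replicate 2. Creb1 measured 7.82 ± 0.537 and 7.13 ± 0.230 TPM (adjusted p = 0.202). Cebpa, Cebpb, Cebpd, Cebpe and Jdp2 were too low to test, with Cebpb at 0.162 ± 0.122 TPM in WT and Cebpe and Jdp2 at 0 in all 10 libraries. Of the 3 tested relatives of Trib3 and Chac1 0 rose and 0 fell by limma, with 1 at an unadjusted p under 0.05. Trib2 measured 14.2 ± 1.21 and 12.4 ± 1.07 TPM (adjusted p = 0.117), Chac2 11.1 ± 1.42 and 10.04 ± 0.442 (adjusted p = 0.289) and Trib1 8.57 ± 0.456 and 8.85 ± 0.731 (adjusted p = 0.729).

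Of 19 amino acid transport and synthesis genes known as ATF4 targets, 15 fell, 0 rose and 4 did not pass (median log2 fold change -0.25). In this list 0 were higher at an unadjusted p under 0.05 in limma. Over all tested genes 7.55% fell and 9.58% rose by the adjusted test. Slc7a3, a transporter of cationic amino acids, fell from 25.7 ± 1.61 to 15.7 ± 1.17 TPM (limma log2 fold change -0.68, adjusted p = 2.75e-05). Slc6a9, a glycine transporter, fell from 5.52 ± 0.986 to 3.03 ± 0.644 TPM (log2 fold change -0.69). Both log2 fold changes of TPM + 1 were close to that of Trib3 (-0.67), but the added 1 TPM shrinks the change of a low gene such as Slc6a9 more. Phgdh, the first enzyme of serine synthesis, fell from 932 ± 18.4 to 759 ± 31.6 TPM, and Psph, the last, from 172 ± 3.91 to 141 ± 5.75. Asns, which makes asparagine, fell from 192 ± 12.9 to 147 ± 8.10 TPM. The 4 that did not pass, Slc7a11, Slc7a5, Slc7a1 and Slc38a2, are all transporters, with log2 fold changes of -0.041 to 0.018. In 10 of the 19 genes Riok2hKO replicates 1 and 3 were the lowest pair, and Psat1, Shmt2 and Gpt2 showed the full split seen in Ddit3, Trib3, Chac1 and Nupr1. Over all tested genes 12.6% had that lowest pair and 4.67% the full split. Whether any list differs from these shares was not tested. In the other 7 lists that pair was lowest in 3 of 13 tRNA synthetase and export genes (full split in Nars and Yars), 2 of 11 stress, growth and death genes (Sqstm1 and Bcl2l11, both with the full split), 2 of 21 genes of the IRE1 and ATF6 branches, 3 of 16 eIF2 and eIF2B genes (full split in Eif2a and Ppp1r15b), 2 of 7 kinase and regulator genes, 1 of 9 ATF and C/EBP relatives (Atf1, with the full split) and 0 of 3 relatives of Trib3 and Chac1. Of 12 tRNA synthetase genes and the tRNA exporter gene Xpot, 8 fell, 0 rose and 5 did not pass (median -0.12; 0 were higher at an unadjusted p under 0.05 in limma). They were led by Nars (280.2 ± 2.37 to 231 ± 11.3 TPM), Cars (67.8 ± 1.48 to 57.6 ± 2.12), the Mars gene that overlaps Ddit3, and Yars (114 ± 2.71 to 102 ± 3.96). In that list 5 fell without WT replicate 3 or Riok2hKO replicate 2.

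Stress, growth and death genes counted as ATF4 or CHOP targets went both ways. Of 11 tested, 3 fell and 2 rose (median 0.057), where 7.55% of all tested genes fell and 9.58% rose. The autophagy receptor gene Sqstm1 fell from 185 ± 10.2 to 155 ± 8.45 TPM, the translation inhibitor gene Eif4ebp1 from 343 ± 10.3 to 307 ± 14.3, and Bcl2l11, which encodes the death-promoting protein BIM, from 3.79 ± 0.416 to 2.76 ± 0.545 (limma adjusted p = 0.0328). The call of Bcl2l11 was lost without WT replicate 2, 3 or 5 or Riok2hKO replicate 1, 2, 3 or 5 (adjusted p = 0.0542 to 0.0745), and in 3 of 10 other alternatives (0.0535 to 0.0766). Ero1l, an oxidase of the endoplasmic reticulum known as a CHOP target, rose from 62.3 ± 5.04 to 77.3 ± 4.24 TPM (log2 fold change 0.31, adjusted p = 0.00394), opposite to Ddit3. The mTOR inhibitor gene Ddit4 rose from 27.5 ± 6.20 to 37.5 ± 2.80 TPM (adjusted p = 0.0456). Without any 1 of WT replicates 2, 4 and 5 and the 5 Riok2hKO libraries, 1 gene of this list rose, Ero1l. The death genes Bbc3 (2.19 ± 0.290 and 2.12 ± 0.743 TPM), Pmaip1 (3.59 ± 0.769 and 4.13 ± 0.256) and Tnfrsf10b (15.1 ± 1.47 and 15.7 ± 0.943) did not pass, and Vldlr, Gdf15, Fgf21, Vegfa and Gadd45a were too low to test.

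The IRE1 and ATF6 branches of the unfolded protein response respond to the same stress as PERK by routes other than eIF2. Of 21 genes of these branches 9 rose, 1 fell and 11 did not pass (median 0.16). Over all tested genes 9.58% rose and 7.55% fell. The chaperone gene Calr rose from 345 ± 11.5 to 406 ± 11.1 TPM, Hsp90b1 from 358 ± 13.3 to 405 ± 10.4 and Hyou1 from 17.75 ± 1.202 to 23.9 ± 1.54, the last with a limma log2 fold change of 0.41. Sdf2l1, a component of chaperone complexes of the endoplasmic reticulum, rose from 173 ± 4.27 to 204 ± 6.66 TPM. Xbp1, the factor that IRE1 activates by splicing, rose from 114 ± 7.81 to 128 ± 3.70 TPM. The 1 that fell, Herpud1, is a degradation factor that went from 92.4 ± 3.19 to 83.6 ± 4.18 TPM (adjusted p = 0.0281), and 0 fell without WT replicate 2 or Riok2hKO replicate 1, 2 or 3.

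**Figure D5:**
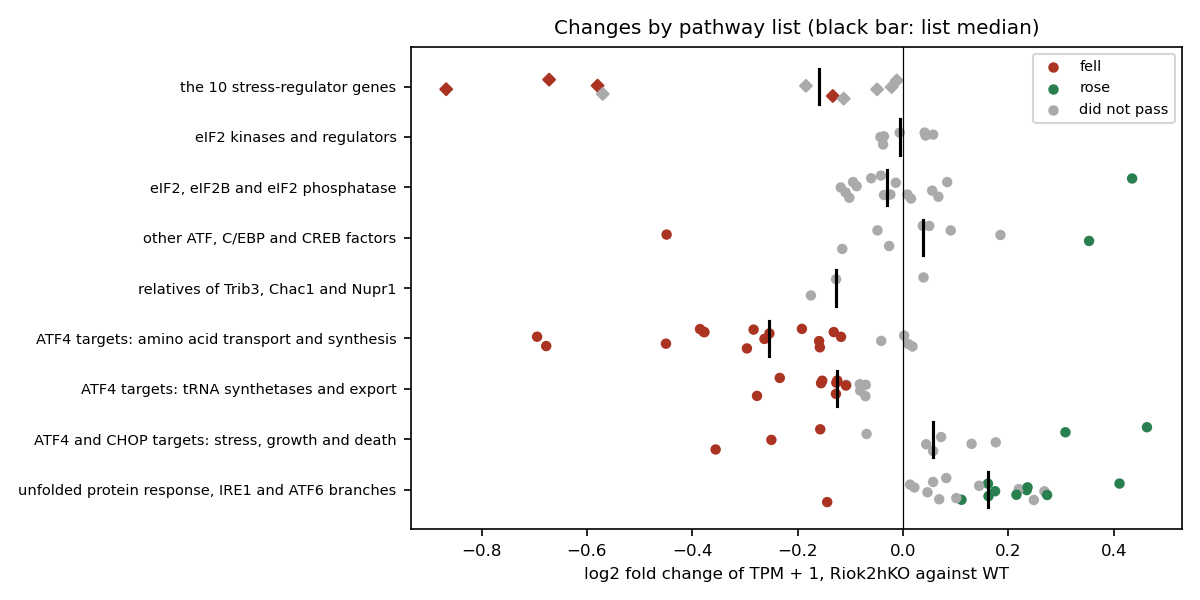
Log2 fold change of TPM + 1 (horizontal axis, Riok2hKO against WT) of each tested gene in 8 pathway lists (circles) and of the 10 genes (diamonds), coloured by test result; vertical jitter has no meaning and black bars are medians. Amino acid genes and tRNA synthetases lie mostly below 0 and the IRE1 and ATF6 branches mostly above.

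Genes with a profile like those of Atf4, Ddit3, Trib3 and Chac1 over the 10 libraries were also ranked. Likeness was the root mean square difference of log2(TPM + 1), each gene centred on its own mean, among 7407 named genes averaging 5 TPM or more. The transporter gene Slc7a3 and Gtpbp2, which encodes a GTP-binding protein, were both among the nearest 3 of Ddit3, Trib3 and Chac1, at 0.123 and 0.121 log2 units from Ddit3, which itself varied by 0.336 around its mean. Gtpbp2 went from 15.4 ± 0.957 to 9.59 ± 1.53 TPM (log2 fold change -0.64, adjusted p = 0.00101). The gene nearest to Ddit3 was Cd8b1 (0.114), the nearest to Chac1 was Dapl1 (0.213), the nearest to Trib3 was Slc7a3 (0.148), and the third of Trib3 was Pou2af1 (0.173). For Atf4 the nearest were Nfkb1 (0.0252), Calu (0.0294) and Nme1 (0.0326), and Nfkb1 went from 60.4 ± 1.96 to 54.5 ± 1.80 TPM. Since genotype sets much of each profile, such likeness says nothing of shared control.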

How the data were processed

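RNA of 10 libraries was read as 38-nucleotide pairs after SMART-seq2, which does not mark strand. Per the labels' protocols, the authors aligned reads to the mm10 transcriptome with Bowtie (version not given in the sources used here) and estimated TPM with RSEM, version 1.2.8 per the submitters' processing notes; these deposited TPM values keep no depth, so no counting error can be given. In 27 of 23420 rows the symbol had become a calendar date, and these were left out. Groups came from the labels; these do not tell if the 5 libraries of a genotype are separate mice or cultures, so a p-value measures only library-to-library spread, possibly technical. No 2 libraries were identical.

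The test was limma (3.58.1, R 4.3.3; lmFit, eBayes with trend) on log2(TPM + 1) with a genotype term. Benjamini-Hochberg adjustment ran over the 10332 genes that reached 1 TPM in 5 or more libraries. Single ratios were compared by two-sided exact permutation over all 252 assignments, with intervals from the pooled SD. The test was also checked on simulated data with known changes. It found 78% of changes of 0.5 log2 units and 99.0% of changes of 1, and 1.69% of its calls were false. Smaller changes were not simulated, so the check does not cover them. The genes, lists and tests were chosen with earlier results of these data known. Named are the 10 genes, Riok2, Il22, up to 4 genes per list with the smallest p, and the 3 nearest profiles of Atf4, Ddit3, Trib3 and Chac1; others (markers, overlapping genes, Slc6a9, Ddit4, Xbp1, Herpud1, the death genes, low or unpassed genes and those named for the library order or promoter matches) were chosen after their values were seen. Il22, the sorted reporter's gene, went from 59.2 ± 12.6 to 316 ± 33.8 TPM. A marker gene of the list checked is not reported here. Alternatives covered the pseudocount, filter, scaling, weights, variance trend, detected genes, replicate block and each library left out. Promoter windows are RefSeq's (GRCm38.p6), matched by symbol for all 10 genes, and overlaps are from GENCODE M21. Plots used matplotlib 3.10.9 (Python 3.11.15).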

Additional observations from a re-analysis of the deposited data

Results flagged for a closer look

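In 2 of the 20 sets of 5 libraries checked (10 genes in each group), 1 library lay far from the other 4 of its group by Dixon's test at the 95% level, where chance gives about 1 in 20. Ddit3 was at 49.25 TPM in WT replicate 3, above the 36.2 to 38.4 of the other WT libraries; without it the log2 fold change was -0.50 (limma adjusted p = 0.00488). Eif2ak3 was at 1.78 TPM in WT replicate 5, above the 1.26 to 1.39 of the other WT libraries.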

How the results depend on the processing

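Of the 10 genes, 3 to 5 fell with 1 library left out and 3 to 6 under the other alternatives, and 0 rose in any; Ddit3, Trib3 and Chac1 kept their calls throughout. Cebpg was called with the detected genes as a covariate (limma adjusted p = 0.0466), and Nupr1 with that covariate (0.0137) and after quantile normalization (0.0412). In the eIF2 and eIF2B list, 1 gene fell after median-of-ratios scaling, quantile normalization, removal of ribosomal protein genes and with the covariate, against 0, and 0 to 1 with 1 library left out. In the ATF and C/EBP list, 0 fell with no filter, with a mean of at least 10 TPM and with the covariate, against 1, and 2 rose without ribosomal protein genes; with 1 library left out 0 to 1 fell and 1 to 2 rose. In the tRNA synthetase list 4 fell with no variance trend, against 8, and 5 to 8 with 1 library left out. In the stress, growth and death list 1 rose with no filter, median-of-ratios scaling, no ribosomal protein genes and no trend, against 2, and 1 to 2 with 1 library left out. In the IRE1 and ATF6 list 0 fell with no trend and with the replicate block, against 1, and 0 to 1 with 1 library left out. The ratio of Ppp1r15a to Ppp1r15b ran from -0.23 to -0.17 and passed without WT replicate 1 (exact permutation adjusted p = 0.0238).

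Signs turned only for small differences: Atf5 0.050 and Eif2ak3 0.0125 with the covariate and Trib1 -0.018 after quantile normalization. With 1 library left out Atf5 ran from -0.12 to 0.085, Eif2ak3 from -0.053 to 0.041 and Eif2ak4 from -0.087 to 0.0013. The causes were not tested. The same replicate numbers occur in both groups, but same-numbered libraries did not deviate together (r = -0.0341 to 0.0679), and 1 of 5 matched its own number best. With the replicate block 3 of the 10 genes fell, Atf4 losing its call (adjusted p = 0.0654), as did Bcl2l11, 564 of all genes fell and 880 rose. Under the block the ratios of Ddit3, Trib3 and Chac1 to Atf4 stayed at -0.45, -0.54 and -0.73 with an adjusted p of 0.125 in an exact sign-flip permutation test, which 5 pairs cannot bring under 0.0625 before adjustment. Without read counts, the precision of low genes such as Atf5 and Eif2ak3 cannot be set apart from library spread.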
